A study of Mus musculus with 25 samples.

Results

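Duncaniella is a genus of the Muribaculaceae, a family of anaerobes in the order Bacteroidales that lives in the gut of mice. It was followed here through full-length 16S rRNA gene amplicons from the feces of C57BL/6 mice. Reads were counted per ASV, an amplicon sequence variant that stands for 1 exact sequence once sequencing errors are removed. An ASV was taken as a member when the genus field of its deposited taxonomy read Duncaniella. The rule found 26 of the 1555 ASVs in the table, and they held 67794 of the 300831 counts, or 22.5%. The table placed all 26 in the Muribaculaceae and gave them 2 species names, Duncaniella dubosii for 21 ASVs and Duncaniella freteri for 5. It held no other genus of that family.

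Muribaculaceae break down complex carbohydrates from the diet and from host mucus with large sets of glycan-degrading enzymes, and they ferment the sugars to succinate, acetate and propionate. In mice they are among the most abundant Bacteroidales of the large intestine. Duncaniella species were isolated from the mouse gut. A bacterial genome can carry several copies of the 16S rRNA gene that differ slightly, and full-length amplicons can separate such copies into ASVs of their own. One organism may therefore appear as more than 1 ASV.

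The samples were 25 fecal libraries in 5 groups of 5. Sham mice were the surgical controls, and OVX, the usual abbreviation of ovariectomy, stands for the model of estrogen deficiency that the other 4 groups share. OVX+GEX mice received a preparation named GEX, which the labels do not spell out, in a study of a traditional medicine. PBS usually stands for phosphate-buffered saline and FMT for fecal microbiota transplantation, and the labels do not name the donors. The labels give the sex of all mice as male, although ovariectomy is done in females. They name neither age nor housing.

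Libraries held 8498 to 22404 counts with a median of 10123, and Duncaniella counts ran from 187 to 6919 per library. For an ASV with no count, the upper limit set by 3 counts was 0.0134% to 0.0353% of a library. Counting intervals and floors cover counting error only. The reagent genera looked for were Ralstonia, Bradyrhizobium, Cutibacterium, Pelomonas and Burkholderia. They and sequences named as mitochondria or chloroplast had 0 counts. A share of 16S counts cannot tell more cells of a genus from fewer cells of the others or from more gene copies per cell.

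Duncaniella held the highest count of all genera in the table and was the leading genus in 11 of 25 libraries. Its rank by counts was 2 in 10 libraries, 3 in 2 libraries, 4 in 1 library and 12 in 1 library. In Sham its share of the library was 23.7%, 9.84%, 11.7%, 9.82% and 11.1% in replicates 1 to 5. In OVX it was 45.4%, 11.3%, 17.8%, 18.3% and 23.6%. In both groups replicate 1 was the highest library, and Sham replicate 1 stood well above the other 4 Sham libraries.

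In OVX+GEX the shares were 25.2%, 1.87%, 6.23%, 9.64% and 39.6%, the widest relative range of the 5 groups, with 21.1-fold between the lowest and the highest library. In OVX+PBS they were 28.2%, 21.3%, 24.7%, 44.9% and 61.9%. In OVX+FMT they were 30.4%, 14.8%, 23.4%, 9.53% and 35.1%. OVX+PBS had no library under 21.3%, and Duncaniella led in 4 of its 5 libraries. The Wilson 95% interval for the lowest library, OVX+GEX replicate 2, was 1.63% to 2.16%, and that for the highest, OVX+PBS replicate 5, was 60.9% to 62.9%. Counting error was thus far smaller than the spread between libraries of 1 group.

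**Figure D1:**
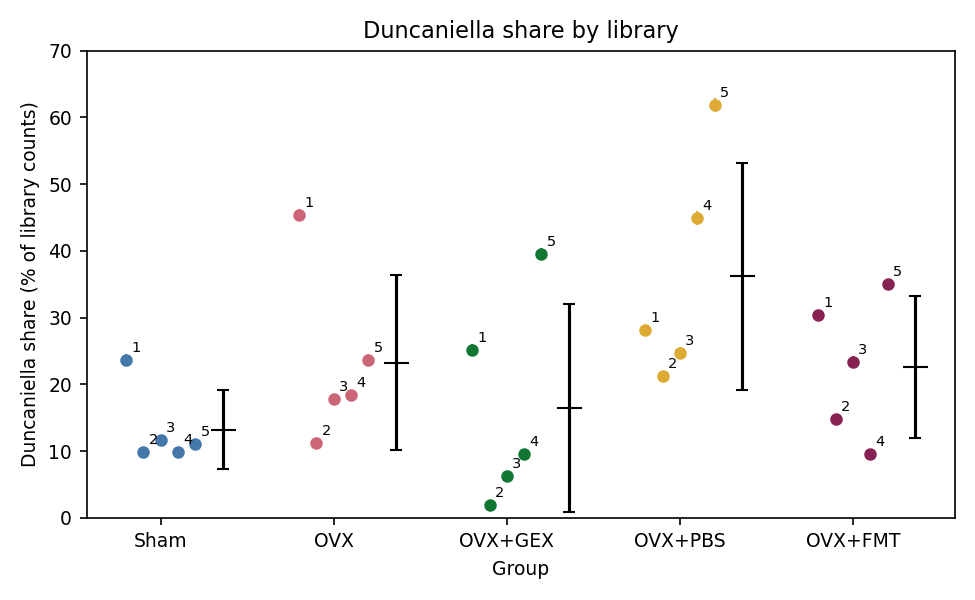
Duncaniella share of library counts (y axis, percent) by group (x axis). Each point is 1 library with its replicate number and Wilson 95% interval, and the black bar is the group mean with 1 SD (n = 5); 4 of 5 Sham libraries lie between 9.82% and 11.7%, and the 5 OVX+PBS libraries between 21.3% and 61.9%.

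Ordered by the mean, the groups ran from Sham at 13.2% ± 5.91, through OVX+GEX at 16.5% ± 15.6, OVX+FMT at 22.6% ± 10.6 and OVX at 23.3% ± 13.1, to OVX+PBS at 36.2% ± 17.0 (SD, n = 5). No neighbours in this order differed beyond their spread. The 4 steps had exact two-sided permutation p-values of 0.690, 0.476, 0.937 and 0.198, and adjusted p-values of 0.794 to 0.937 over the 4 steps. The median gave another order, in which OVX+GEX lay below Sham and OVX below OVX+FMT, with 9.64% in OVX+GEX, 11.1% in Sham, 18.3% in OVX, 23.4% in OVX+FMT and 28.2% in OVX+PBS.

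The design implies 8 comparisons between groups, which share samples and are not independent of each other. The widest was OVX+PBS against Sham, where the mean share was higher by 22.99 percentage points. All OVX+PBS libraries lay above 4 of the 5 Sham libraries, and Sham replicate 1 fell between OVX+PBS replicates 2 and 3. The exact two-sided permutation test gave p = 0.0159 for this difference and an adjusted p of 0.127 over the 8 comparisons. Without Sham replicate 1 the difference was 25.6 points, and without OVX+PBS replicate 5 it was 16.6 points, with adjusted exact permutation p-values of 0.127 and 0.190.

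In edgeR's quasi-likelihood test on counts per genus, Duncaniella had a log2 fold change of 2.33 (SE 0.72) in OVX+PBS against Sham, with an adjusted p of 0.0645 over 81 genera. The test called 1 of the 81 genera in that comparison, which is 1.23%, and Duncaniella was not that genus. The call depended on the tool and on the samples in the fit. DESeq2's Wald test gave 2.56 with an adjusted p of 0.0051, and it called 7 of the 81 genera (8.64%). EdgeR on these 2 groups alone gave 2.49 with an adjusted p of 0.0129, and it called 7 of 57 genera (12.3%). With plain library totals in place of TMM scaling the edgeR value was 1.45 (adjusted p = 0.142), and 3 of the 20 settings run for this comparison, the one reported included, placed Duncaniella past 0.05. The median log2 fold change of all 81 genera was -0.48 with TMM and -1.08 with plain totals, and Duncaniella stood above it by 2.81 and 2.53.

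OVX against Sham, the comparison that asks about estrogen deficiency, gave a share higher by 10.05 percentage points (exact permutation p = 0.119, adjusted p = 0.317). The edgeR log2 fold change was 1.26 (SE 0.70, adjusted p = 0.553). Much of the difference lay in OVX replicate 1, without which it was 4.53 points (exact permutation p = 0.270). Without Sham replicate 1 it was 12.7 points (exact permutation p = 0.0317, adjusted p = 0.127). Taken of the counts that are not Ligilactobacillus, the other leading genus, the difference was 15.6 points (exact permutation p = 0.0238, adjusted p = 0.0952).

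The treated groups gave no call for Duncaniella. For OVX+GEX against OVX, which asks about the medicine, the share was lower by a mean difference of -6.78 points (adjusted exact p = 0.544) and the edgeR log2 fold change was -0.18 (SE 0.69, adjusted p = 0.979). For OVX+FMT against OVX+PBS, which asks about the transplant, the mean difference was -13.6 points (adjusted exact p = 0.317) and the edgeR log2 fold change -0.73 (SE 0.69, adjusted p = 0.583). Without OVX replicate 1 the first difference was -1.26 points and without OVX+GEX replicate 5 it was -12.5, and without OVX+PBS replicate 5 the second was -7.17. Both comparisons had wide errors at this group size, and neither shows that the groups are alike.

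The remaining comparisons were of the same kind. OVX+PBS against OVX had an edgeR log2 fold change of 1.07 (SE 0.70), OVX+GEX against Sham 1.08 (SE 0.70), OVX+FMT against Sham 1.60 (SE 0.71) and OVX+FMT against OVX+GEX 0.52 (SE 0.69). Their adjusted p-values were 0.435, 0.708, 0.233 and 0.885. These sizes depended on the scaling and on single libraries. With plain totals the edgeR values were 0.64, 0.32, 0.78 and 0.46. OVX+GEX against Sham was 0.35 by limma on centred log-ratios and 0.03 by edgeR without OVX+GEX replicate 5. OVX+PBS against OVX was 0.56 without OVX+PBS replicate 5, and OVX+FMT against OVX+GEX was 1.58 without OVX+GEX replicate 5. Of the counts that are not Ligilactobacillus, the share differed by 16.6 points in OVX+FMT against Sham and 7.68 in OVX+GEX against Sham, where of all counts it differed by 9.40 and 3.27 (adjusted exact p-values of 0.233 and 0.508 against 0.317 and 0.690). The share of all genera called by edgeR was 0% in OVX against Sham, OVX+GEX against OVX, OVX+PBS against OVX, OVX+FMT against OVX+PBS and OVX+FMT against OVX+GEX, 4.94% in OVX+GEX against Sham and 1.23% in OVX+FMT against Sham. In the 5 comparisons where edgeR called 0 genera, 5 to 12 genera had an unadjusted p under 0.05, DESeq2 called 0 or 1 and limma on centred log-ratios 0 or 1.

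**Figure D2:**
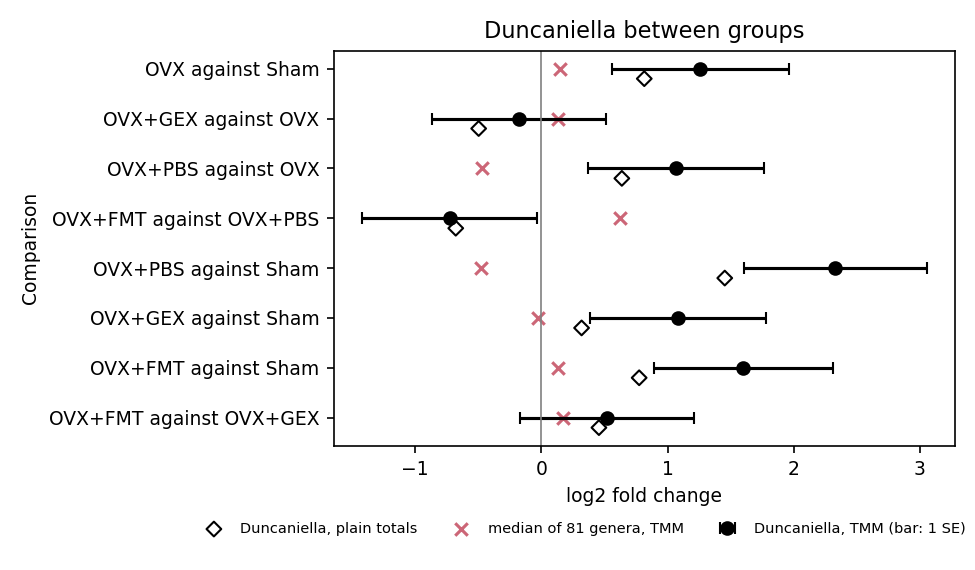
Log2 fold change of Duncaniella (x axis) in 8 comparisons (y axis, first group over second). Filled points are edgeR estimates after TMM with bars of 1 SE, diamonds are estimates with plain totals, and crosses are the median of 81 genera after TMM; OVX+PBS against Sham has the highest Duncaniella estimate, 2.33, while its cross lies at -0.48.

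Below the genus, a few ASVs carried most of the counts. The 10 most abundant of the 26 held 94.96% of Duncaniella counts. ASV_1, named D. freteri, held 23.2% of them. It was followed by ASV_7, ASV_8 and ASV_10, named D. dubosii, with 13.6%, 13.5% and 12.8%. ASV_12 and ASV_16, both named D. freteri, held 12.1% and 7.65%. These 6 ASVs and ASV_29 were present in all 25 libraries.

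Such wide occurrence was uncommon in the table, where 20 of 1555 ASVs (1.29%) were present in all 25 libraries. Duncaniella supplied 7 of those 20. ASV_27, ASV_37 and ASV_43 were present in 24 libraries each. At the other end, 11 Duncaniella ASVs were seen in 5 libraries or fewer, 4 of them in a single library. These 11 did not pass the filter for the ASV test and held 5.80% of Duncaniella counts, most of it in ASV_21. The lowest Duncaniella count above 0 for any ASV in any library was 5, while the lowest in the whole table was 2.

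The most abundant ASVs fell into sets whose members kept nearly fixed ratios. ASV_7, ASV_8, ASV_10 and ASV_12 stood close to 1:1:1:1 in every library. Their median shares of the sum of the 4 were 25.9%, 25.4%, 24.6% and 23.3%, and no share in any library was below 19.8% or above 34.6%. The SD of the log2 ratio between any 2 of these 4 over 25 libraries was 0.16 to 0.22. The sum of the 4 ran from 31.0% to 71.7% of Duncaniella, so the set as a whole varied while its parts stayed even.

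ASV_1 and ASV_16 made a second steady pair, with a median of 3.09 counts of ASV_1 for each count of ASV_16 and a range of 2.32 to 3.804. The SD of their log2 ratio was 0.18. ASV_27 and ASV_29 made another, with a median ratio of 1.05 and an SD of 0.31 over 24 libraries, where counting error alone would give 0.31. The 3 steadiest of all 36 pairs were ASV_10 with ASV_12, ASV_8 with ASV_12, and ASV_7 with ASV_10, with SDs of 0.163, 0.164 and 0.165 against counting SDs of 0.171, 0.164 and 0.169. Read with full weight on the deeper libraries, the ratios were not exactly fixed: chi-square per degree of freedom was 1.07 to 2.65 over the 8 pairs within sets, where 1 would be counting error alone.

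Between the sets the ratios were loose. The 8 pairs of ASV_1 or ASV_16 with one of the even 4 had SDs of 0.76 to 0.83. ASV_1 with ASV_27 (SD 1.04), ASV_16 with ASV_27 (0.99) and ASV_1 with ASV_29 (0.97) were the loosest of the 36, with counting SDs of 0.227 to 0.248. The species names did not follow these sets. ASV_12 carries the name D. freteri like ASV_1 and ASV_16, yet its log2 ratio to ASV_1 had an SD of 0.83. Its ratios to ASV_7, ASV_8 and ASV_10, the dubosii ASVs of the even set, had SDs of 0.16 and 0.17. Those to ASV_37, ASV_29 and ASV_27, also named D. dubosii, had SDs of 0.74, 0.76 and 0.79. Whether the members of a set come from 1 genome was not tested. These ratios describe the libraries and were not compared between groups with a test.

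**Figure D3:**
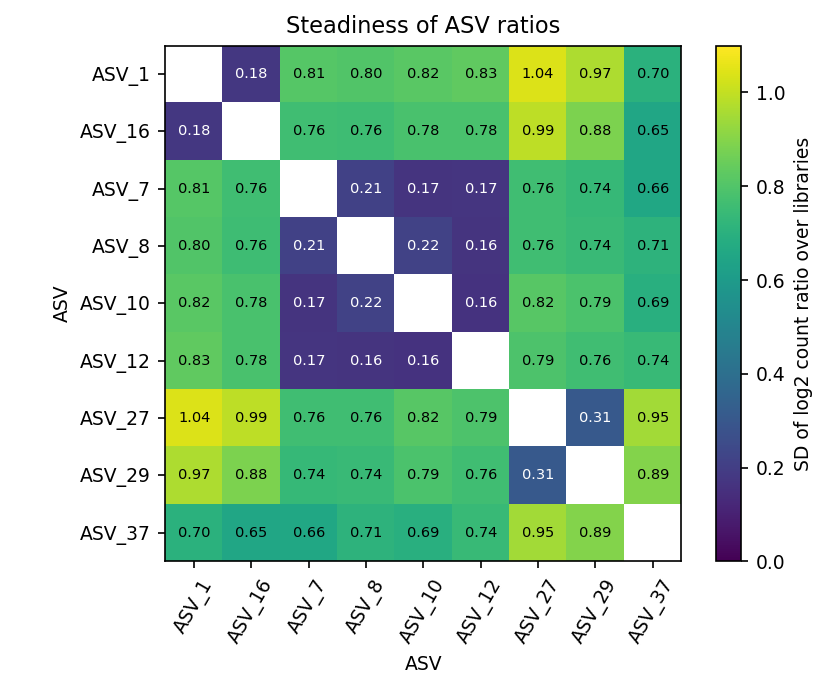
SD over libraries of the log2 count ratio (colour and printed value) for 36 pairs of Duncaniella ASVs, using libraries where both ASVs have 10 or more counts. Dark blocks are the steady sets ASV_1 with ASV_16 (0.18), ASV_7, ASV_8, ASV_10 and ASV_12 (0.16 to 0.22) and ASV_27 with ASV_29 (0.31), and pairs across sets range up to 1.04.

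The balance between the sets differed from library to library. Counts of ASV_1 and ASV_16 together were 0.246 to 1.73 times the sum of the even 4, with a median of 0.777. ASV_1 was the leading Duncaniella ASV in 20 of 25 libraries. In the other 5 (OVX replicates 1 and 5, OVX+PBS replicate 5, and OVX+FMT replicates 2 and 3) one of the even 4 led.

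ASV_1 held 30.2%, 31.2%, 21.0%, 29.8% and 30.7% of Duncaniella counts in Sham replicates 1 to 5. In OVX it held 15.6%, 25.4%, 18.7%, 31.4% and 15.8%, and in OVX+GEX 29.7%, 35.3%, 33.5%, 40.3% and 16.9%. Sham was even apart from replicate 3, whereas OVX and OVX+GEX each spread over more than 15 percentage points. In OVX+PBS ASV_1 held 36.5%, 38.1%, 36.3%, 19.5% and 10.6%, and in OVX+FMT 17.2%, 14.1%, 15.5%, 19.5% and 23.3%. OVX+FMT had the lowest mean, 17.9% ± 3.63, against 28.6% ± 4.26 in Sham and 31.1% ± 8.80 in OVX+GEX (SD, n = 5).

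The lower fraction of ASV_1 in OVX+FMT had exact permutation p-values of 0.0159 against Sham and 0.0317 against OVX+GEX, and an adjusted p of 0.127 for both over 8 comparisons. It was lower than in OVX+PBS by a mean difference of -10.3 percentage points (adjusted exact p = 0.216). OVX (21.4% ± 6.89) and Sham differed by -7.20 points and OVX+GEX and OVX by 9.77 points, each with an adjusted exact p of 0.175. OVX+PBS differed from Sham by -0.38 points and from OVX by 6.82 points, and OVX+GEX from Sham by 2.56 points (adjusted exact p of 0.992, 0.402 and 0.662). None of the 8 passed adjustment.

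**Figure D4:**
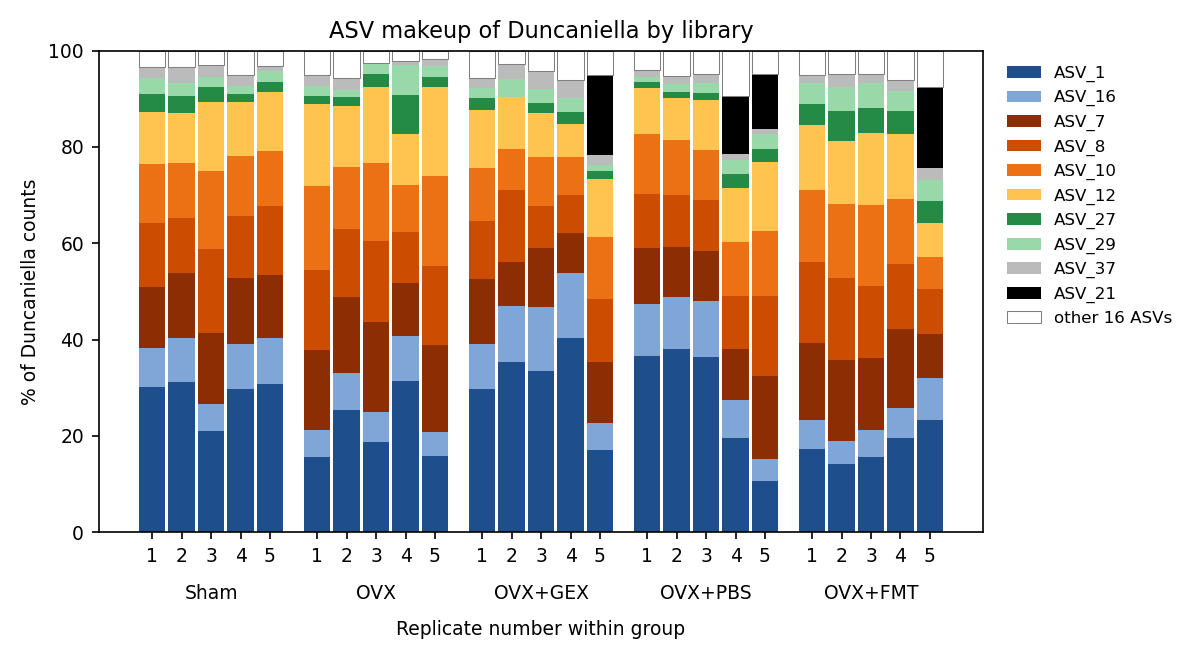
Makeup of Duncaniella in each of 25 libraries (x axis, replicates 1 to 5 in 5 groups) as percent of its counts (y axis). Blue is the steady pair ASV_1 and ASV_16, red to yellow the even set of 4, green ASV_27 and ASV_29, grey ASV_37, black ASV_21, which appears in 4 libraries, and white the other 16 ASVs.

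Over all ASVs, the makeup within Duncaniella varied within groups nearly as much as between them. Bray-Curtis distances between within-genus shares averaged 0.177 over the 50 pairs of libraries of the same group and 0.210 over the 250 pairs of different groups. The grouping took R2 = 0.273 of that variation in OVX+FMT against Sham (exact permutation p = 0.0476), 0.304 in OVX+FMT against OVX+GEX (p = 0.0635) and 0.293 in OVX+GEX against OVX (exact permutation p = 0.0794), each with an adjusted p of 0.212. The other 5 comparisons had R2 of 0.104 to 0.221 and adjusted exact p-values of 0.254 to 0.437. Single libraries weighed heavily on R2. Without OVX+FMT replicate 5 it was 0.599 against Sham and 0.493 against OVX+GEX. Without OVX+GEX replicate 5 it was 0.495 in OVX+FMT against OVX+GEX and 0.480 in OVX+GEX against OVX, and without OVX replicate 4 it was 0.453 in the latter and 0.506 in OVX against Sham. With 8 comparisons, a lone result at the smallest exact p cannot adjust below 0.05.

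The number of Duncaniella ASVs expected in 100 Duncaniella reads averaged 10.4 ± 0.790 in Sham, 10.4 ± 0.762 in OVX, 10.8 ± 1.48 in OVX+GEX, 11.6 ± 0.952 in OVX+PBS and 12.3 ± 1.16 in OVX+FMT (SD, n = 5). The step from Sham to OVX+FMT was 1.89 ASVs with an exact permutation p of 0.0159 and an adjusted p of 0.127. The other 7 comparisons had adjusted exact p-values of 0.190 to 0.976.

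ASV_21, named D. freteri, was either abundant or not seen. It held 456 counts in OVX+PBS replicate 4, 625 in OVX+PBS replicate 5, 711 in OVX+GEX replicate 5 and 1169 in OVX+FMT replicate 5, and 0 in the other 21 libraries. All 10 Sham and OVX libraries were at 0. ASV_78, also named D. freteri, held 216, 184 and 137 counts in OVX+PBS replicates 4 and 5 and OVX+FMT replicate 5, and ASV_288 held 32, 26 and 37 in OVX+PBS replicate 5, OVX+GEX replicate 5 and OVX+FMT replicate 5. Both were at 0 elsewhere. All 3 ASVs were present together in OVX+PBS replicate 5 and OVX+FMT replicate 5, and in OVX+PBS replicate 4 and OVX+GEX replicate 5 ASV_21 occurred with ASV_78 or with ASV_288 alone.

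In those 4 libraries the 3 ASVs together made up 17.5%, 15.4%, 17.3% and 19.4% of Duncaniella. The same 4 libraries held 4 of the 5 highest Duncaniella shares, and the other one was OVX replicate 1. These shares include the 3 ASVs themselves. Without them OVX+FMT replicate 5 was at 30.3%, below OVX+FMT replicate 1 at 30.4%, and was no longer among the 5 highest. Leaving the 3 ASVs out of the counts changed the OVX+PBS mean from 36.2% to 34.5%, and the difference from Sham from 22.99 to 21.3 points (adjusted exact p = 0.127). The labels name no cages or donors, and their part in this occurrence was not tested.

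None of the 3 passed the filter of at least 3 counts in at least 5 libraries. Without a filter edgeR called ASV_21 in OVX+PBS against Sham (adjusted p = 9.57e-09), where the background was 0.322% of 1555 ASVs. It also called ASV_21 in OVX+PBS against OVX, OVX+GEX against OVX, OVX+GEX against Sham and OVX+FMT against Sham (background of 0.386%, 0.0643%, 0.193% and 0.386%), with adjusted p-values of 1.76e-08 to 3.51e-07. The counts came from 2 of 5 OVX+PBS libraries and from 1 library each in OVX+GEX and OVX+FMT, so these calls rest on 1 or 2 libraries a group. The OVX+PBS mean of ASV_21, 2.48% ± 3.45 (SD, n = 5), was 102 times the Sham floor of 3 counts per library.

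Of the 15 Duncaniella ASVs that passed the filter, edgeR called 0 in each of the 8 comparisons. Over all 379 ASVs the share called was 1.06% in OVX+FMT against Sham (0.264% higher and 0.792% lower), 0.264% in OVX+FMT against OVX+GEX and 0% in the other 6. At an unadjusted edgeR p under 0.05 there were 0 to 2 Duncaniella ASVs per comparison, against 65 to 97 of all 379 ASVs. DESeq2 and limma on centred log-ratios also called 0 of the 15. Over all ASVs they called 1 to 10 and 0 to 12 per comparison. The median log2 fold change of the 15 was 1.15 in OVX+PBS against Sham, against -1.04 over all ASVs, and 1.05 and -0.28 in OVX against Sham. It was -0.36 and 0.49 in OVX+FMT against OVX+PBS. The ASVs of a steady set are not separate measurements, so these medians add no evidence apart from the genus. They differed from it in size. In OVX+PBS against Sham the genus estimate was 2.33 after TMM and 1.45 with plain totals, against the ASV median of 1.15. In OVX against Sham it was 1.26 after TMM, against 1.05. Genera and ASVs were scaled in separate fits.

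ASV_258 and ASV_466, both of low count, had the smallest p-values in several comparisons. ASV_258, named D. dubosii, had 0 counts in all 5 Sham and all 5 OVX+PBS libraries, and 7 to 28 counts in 3 OVX, 2 OVX+GEX and 3 OVX+FMT libraries. Its OVX+FMT mean was 3.75 times the Sham floor (edgeR adjusted p = 0.113) and 3.18 times the OVX+PBS floor (edgeR adjusted p = 0.175). Its OVX mean was 2.16 times the OVX+PBS floor (edgeR adjusted p = 0.127) and 2.54 times the Sham floor. Its OVX+GEX mean was 1.54 times the Sham floor (edgeR adjusted p of 0.158 and 0.186 for OVX and OVX+GEX against Sham). ASV_466 held 47 counts in all and was at 0 in Sham. Its OVX+PBS mean, from 3 libraries with 5 to 8 counts, was 1.29 times the Sham floor (edgeR adjusted p = 0.122). Its means in OVX, OVX+GEX and OVX+FMT were 0.51, 0.41 and 0.62 times the Sham floor. These ratios leave out the spread between libraries and are not lower bounds: ASV_466 in OVX+PBS was at 0.0315% ± 0.0303 (SD, n = 5). With 0 counts in Sham, both ASVs passed the filter only through the other groups.

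Among the abundant ASVs, ASV_1 had log2 fold changes of 1.06 (SE 0.51) in OVX+PBS against Sham, 0.81 (SE 0.51) in OVX+PBS against OVX and -0.83 (SE 0.51) in OVX+FMT against OVX+PBS, with edgeR adjusted p-values of 0.178, 0.380 and 0.435. ASV_12 and ASV_10, both of the even set, had -0.96 and -0.93 in OVX+GEX against OVX (edgeR adjusted p of 0.607 and 0.623). ASV_29 and ASV_27 had 1.73 and 1.80 in OVX+FMT against OVX+GEX (edgeR adjusted p of 0.393 and 0.409).

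By species name, D. freteri held 6.43% ± 2.95 of the library in Sham, 9.68% ± 4.62 in OVX, 8.70% ± 7.82 in OVX+GEX, 19.1% ± 6.79 in OVX+PBS and 9.69% ± 6.65 in OVX+FMT (SD, n = 5). D. dubosii held 6.79% ± 3.05, 13.6% ± 8.60, 7.79% ± 7.80, 17.1% ± 10.5 and 12.9% ± 5.14. All 5 OVX+PBS libraries (12.3% to 27.5%) lay above all 5 Sham libraries (4.77% to 11.7%) for D. freteri. With ASV_21 and ASV_78 left out the OVX+PBS range was 12.3% to 18.3%, still above Sham. For D. dubosii the ranges overlapped, at 9.04% to 34.4% in OVX+PBS and 4.88% to 12.04% in Sham. Species sums were not tested, and no share of other taxa that separate OVX+PBS from Sham stands beside these ranges. The steady sets above cut across these names.

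How Duncaniella moved with the rest of the community was read from 7 relations over the 25 libraries, with shares taken of the reads that are not Duncaniella. Bacteroides, another Bacteroidales glycan degrader with 1 ASV in the table (B. caccae), moved with it closely. Its share of the other reads was 0.0613% in OVX+GEX replicate 2, where Duncaniella was lowest, and 8.80% in OVX+PBS replicate 5, where Duncaniella was highest. Pearson's r was 0.91 and Spearman's rho 0.86 (n = 25), each with a permutation p of 1e-05, the smallest that 100000 resamples can give, and an adjusted p of 7e-05.

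The relation held within groups, with r = 0.92 after group means were subtracted (permutation p = 1e-05, adjusted p = 7e-05), and r was 0.89 without OVX+PBS replicate 5 and OVX replicate 1, the 2 libraries farthest from the median. A share of the other reads rises with Duncaniella when a genus keeps a constant share of all reads. With shares of all reads, where closure pushes the other way, r was 0.84 and rho 0.77 (permutation p = 1e-05 for both). Bacteroides itself held 1.25% ± 0.882 in Sham, 1.03% ± 0.471 in OVX, 1.24% ± 1.16 in OVX+GEX, 2.22% ± 0.973 in OVX+PBS and 1.52% ± 0.839 in OVX+FMT (SD, n = 5), with edgeR adjusted p-values of 0.215 to 0.936 over the 8 comparisons.

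**Figure D5:**
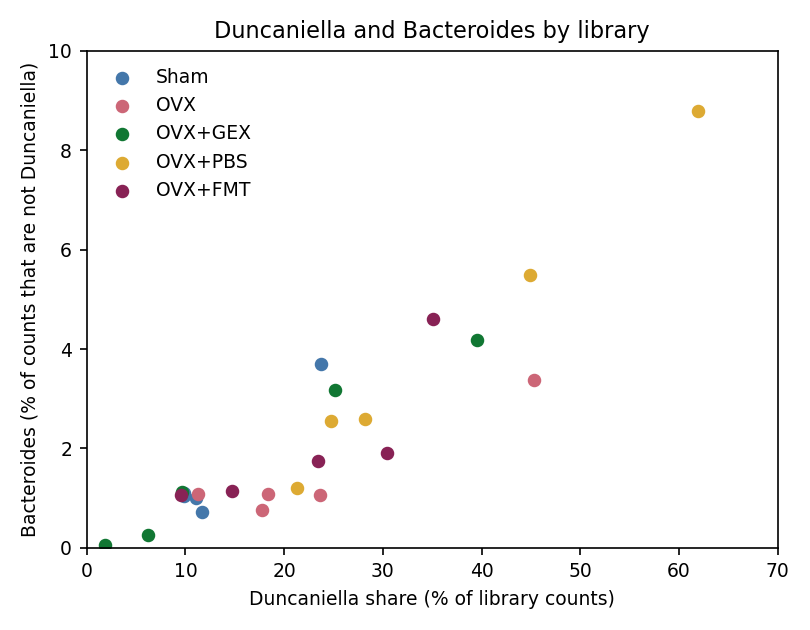
Bacteroides as percent of the counts that are not Duncaniella (y axis) against the Duncaniella share of library counts (x axis), 1 point per library, coloured by group. The 25 points rise together (r = 0.91), from OVX+GEX replicate 2 at 1.87% and 0.0613% to OVX+PBS replicate 5 at 61.9% and 8.80%.

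The ASV richness of the other reads had r = -0.56 with Duncaniella (permutation p = 0.0035, adjusted p = 0.0124). Its rho was -0.39 (permutation p = 0.0518, adjusted p = 0.181), and after group means were subtracted r was -0.48 (permutation p = 0.0587, adjusted p = 0.206). Within groups the coefficient was thus of similar size but missed the threshold. Without the 2 farthest libraries r was -0.46. Akkermansia, a mucin degrader, had r = -0.29, the Lachnospiraceae -0.29, the Oscillospiraceae with Ruminococcaceae 0.12, Ligilactobacillus 0.09 and the library total 0.03, with adjusted permutation p-values of 0.288 to 0.880 (n = 25). The sign of 2 of these depended on the denominator: of all reads, r was -0.23 for Ligilactobacillus and -0.48 for the Oscillospiraceae with Ruminococcaceae.

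On centred log-ratios over all 25 libraries, the 3 genera most like Duncaniella among the other 80 tested were Bacteroides (rho 0.90), Lawsonibacter (0.63) and Phocea (0.63). The 3 least like it were Lachnoclostridium (-0.79), Hungatella (-0.76) and Schaedlerella (-0.75), all clostridia. After group means were removed, these 6 values were 0.86, 0.29, 0.59, -0.79, -0.65 and -0.84. The median rho over the 80 genera was 0.06. These values describe the libraries, which share 1 total per library between all genera.

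The other Bacteroidales were few. Of 12 genus names in the Bacteroidales list 3 had counts: Duncaniella, Bacteroides and Parabacteroides, whose share ran from 0% to 1.26% with a rho of 0.42 to Duncaniella. EdgeR called 0 of the 3 in the 8 comparisons, with the lowest adjusted p at 0.0645 for Duncaniella. Their median log2 fold change in OVX+PBS against Sham was 1.65, against -0.48 over all 81 genera. Of the mucin and host glycan users 5 of 6 were tested and of the succinate and propionate formers 2 of 6, with 0 calls in either list by edgeR and lowest adjusted p-values of 0.0714 and 0.215. The list of lactobacilli also holds Lactococcus, which belongs to the Streptococcaceae. In that list 3 of 5 were tested and 1 call was made over the 8 comparisons. The call was Ligilactobacillus, which rose in OVX+GEX against Sham (log2 fold change 1.95, SE 0.57, edgeR adjusted p = 0.0390). In that comparison 4.94% of all genera were called, each of them higher.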

How the data were processed

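The table held whole read counts per ASV with a taxonomy of 7 ranks, converted from a BIOM file, per the file headers. The counts were deposited by the authors without normalization. Per the submitters' processing notes, Subread was among the tools, in a role they do not state. Which denoiser, primers and reference taxonomy were used, and how ASVs were filtered, is not given in the sources used here. Columns were matched to samples by name, and 5 columns spelled OVX+GES were taken as OVX+GEX because the rest of each name and its number match. Other sample columns numbered 0, so none was left out.

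Counts per genus and per ASV were tested with edgeR 4.0.16 in R 4.3.3 (quasi-likelihood F test, TMM, all 25 libraries in 1 fit, features with at least 3 counts in at least 5 libraries), which left 81 genera and 379 ASVs. Adjusted p-values are Benjamini-Hochberg values over all features, with a threshold of 0.05, and standard errors come from the F statistic. Single values per library were compared by exact two-sided permutation over the 252 splits of 5 and 5, so that the smallest p was 0.00794, and adjusted over 8 comparisons. Relations used 100000 resamples and adjustment over 7. Richness of the other reads was rarefied to the smallest such total, and 0.5 was added before logarithms. Alternatives were DESeq2 1.42.0, limma 3.58.1, other scalings and filters, and leaving out each library. Scripts were tested on simulated data.

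Named ASVs were the 10 most abundant, any past 0.05 and the 2 with the smallest p in each comparison. The genus, the lists and the rules were chosen with earlier results of these data known. ASV_78, ASV_288 and the steady sets were singled out after their values were seen. Labels do not say whether libraries come from separate cages, so the p-values reflect only how these libraries vary, which may in part be technical. Replicate numbers were not taken as pairs.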

Additional observations from a re-analysis of the deposited data

Results flagged for a closer look

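In groups of 5, a library whose gap to its nearest neighbour exceeded 0.71 of the group's range (Dixon's 95% value) was marked, and chance marks about 1 in 20 groups. Of 73 groups checked, 10 held such a library. Sham replicate 1 accounted for 7 of them, the genus share and parts of it, which are not independent marks. Its Duncaniella share was 23.7%, against 9.82% to 11.7% in the other 4 Sham libraries, and its D. freteri and D. dubosii shares were 11.7% and 12.04%. Its shares of ASV_1, ASV_7, ASV_27 and ASV_29 were 7.15%, 3.00%, 0.883% and 0.770% of the library. In Sham replicate 3 ASV_1 held 21.0% of Duncaniella, against 29.8% to 31.2% in the other 4. ASV_21 held 6.60% of the library in OVX+GEX replicate 5 and 5.92% in OVX+FMT replicate 5, against 0 in the other 4 libraries of each group. A group with counts in 1 library alone is always marked by this rule.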

How the results depend on the processing

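The Duncaniella log2 fold change in OVX+PBS against Sham was 2.56 by DESeq2 (adjusted p = 0.0051), 2.49 with these 2 groups alone (adjusted p = 0.0129) and 2.05 with the replicate number as a block (adjusted p = 0.0382). With the block edgeR called 3 of the 81 genera in that comparison. Of 40 same-numbered pairs of libraries, 13 had deviations that correlated over 0.1, and r ran from -0.29 to 0.34. In OVX+GEX against OVX r ran from 0.09 to 0.20. Whether equal numbers mark a shared cage or batch was not tested. The block changed no other call for the genus, and with it the share tests cannot go below an exact p of 0.0625. The shares in OVX+GEX against Sham turned to -0.28 on the log2 scale, and ranged from -2.50 to 6.92 points with 1 library left out. ASVs in 100 reads turned to -0.17 in OVX against Sham with 50 reads, and ranged with 1 library left out from -0.24 to 0.28 there, from -0.0377 to 0.831 in OVX+GEX against OVX and from -0.0281 to 0.841 in OVX+GEX against Sham. With 1 library left out the ASV_1 fraction in OVX+PBS against Sham ranged from -2.86 to 4.01 points, and the log2 fold change in OVX+GEX against OVX from -1.38 to 0.11.

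On the log2 scale of the Duncaniella share, r with the richness of the other reads was -0.42 (adjusted permutation p = 0.123). With shares of all reads, an alternative chosen after seeing the data, r was -0.23 for Ligilactobacillus, -0.48 for the Oscillospiraceae with Ruminococcaceae (adjusted permutation p = 0.0276) and -0.57 for the Lachnospiraceae (adjusted permutation p = 0.0082). Without a filter edgeR called 1 Duncaniella ASV, ASV_21, in OVX+GEX against OVX, OVX+GEX against Sham and OVX+FMT against Sham. Of all 1555 ASVs it called 0.0643%, 0.193% and 0.386% there. In OVX+PBS against OVX and against Sham it called 2, ASV_21 and ASV_78, where 0.386% and 0.322% of all ASVs were called. ASV_78 had edgeR adjusted p-values of 0.0362 and 0.0269. These calls rest on 1 or 2 libraries a group. With 1 library left out, R2 ranged from 0.112 to 0.506 in OVX against Sham, from 0.229 to 0.599 in OVX+FMT against Sham and from 0.0488 to 0.366 in OVX+GEX against Sham. With 5 libraries a group, no single share, ASV number or R2 could pass adjustment alone, so their side of the threshold says nothing about stability.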

Other observations

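ASV_27 and ASV_29, a steady pair named D. dubosii, were noticed in OVX+FMT after the values were seen and were not tested. The share of other ASVs or ASV sets that set a group apart as far is not given here. Together they made up 8.71%, 11.4%, 10.3%, 9.07% and 8.98% of Duncaniella in OVX+FMT replicates 1 to 5. In 19 of the other 20 libraries they made up 2.31% to 6.98%, and in OVX replicate 4 they reached 14.3%. Per 100 counts of the even set of 4 ASVs, OVX+FMT held 18.6 ± 5.42 counts of the pair and Sham 10.3 ± 3.37 (SD, n = 5), and the lowest OVX+FMT library and the highest Sham library were both at 14.2. The OVX+FMT range on this scale was 14.2 to 28.0. OVX replicate 4 at 34.0 lay above it and OVX+GEX replicate 4 at 17.3 within it. The OVX+PBS libraries, at 5.15 to 13.1, lay below it.

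Among the 10 genera with the highest counts, ASVs present in every library were also seen in Akkermansia, which has 1 ASV, in Ligilactobacillus, with 6 of its 10 ASVs in all 25 libraries, and in Gluceribacter, with 2 of 4. Acetivibrio, Anaerobacterium, Kineothrix and Lachnoclostridium, with 108 to 162 ASVs each, had 0 in all 25 libraries, and their mean was 87.9 to 166 reads per ASV against 2607 in Duncaniella.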
